A study of Rattus norvegicus with 3 samples.

Results

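The genes described here are 10 markers of endothelial cells, the cells that line blood vessels: Pecam1, Cdh5, Tek, Tie1, Sox17, Kdr, Flt1, Cldn5, Vwf and Nos3. They were read in cultures of neonatal rat ventricular cardiomyocytes, on 3 one-colour Agilent arrays with 1 array per group. A gene's probes were those whose accession belongs to it in RefSeq, and 9 of the 10 had such a probe, always 1, while Vwf was not analysed here. The whole series holds 15168 genes with a matched probe. The Control cells carried an empty vector, the HSD1 cells an expression vector for 11β-HSD1, the enzyme that regenerates active glucocorticoid, and the HSD1+BVT cells that same vector together with BVT.2733, an inhibitor of the enzyme. All were neonatal cells, and the RNA of each group was a pool. The sources used here give no dose, time, number of animals or species of the vector's insert. The study asked how 11β-HSD1 acts on hypertrophy of these cells.

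Vascular endothelium is built on a small set of signalling systems. VEGF binds the receptor tyrosine kinases Kdr and Flt1, angiopoietins bind Tek, and Tie1 is a related receptor without a clear ligand of its own. Pecam1, Cdh5 and Cldn5 join endothelial cells to each other. Sox17 is a transcription factor of arterial endothelium. Nos3 makes nitric oxide and Vwf is a clotting factor stored by endothelium. In the heart, endothelial cells are a large part of the non-muscle cells, and some of them are carried along when cardiomyocytes are isolated.

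RefSeq promoters were in the table used here for 5 of the 10 genes, and the 250 bases before the start of both VEGF receptor genes are shown because both genes were measured on every array and their products bind the same ligand. Capitals mark matches on either strand to AGGAAG, a longer sequence that holds GGAA, the core bound by ETS factors.
Kdr, GRCr8 chr14:32571813-32572062, plus strand: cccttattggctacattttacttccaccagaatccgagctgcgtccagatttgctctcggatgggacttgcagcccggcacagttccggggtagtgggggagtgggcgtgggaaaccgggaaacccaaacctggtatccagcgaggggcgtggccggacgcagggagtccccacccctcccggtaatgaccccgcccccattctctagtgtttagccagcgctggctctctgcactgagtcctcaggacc
Flt1, GRCr8 chr12:12333180-12333429, plus strand: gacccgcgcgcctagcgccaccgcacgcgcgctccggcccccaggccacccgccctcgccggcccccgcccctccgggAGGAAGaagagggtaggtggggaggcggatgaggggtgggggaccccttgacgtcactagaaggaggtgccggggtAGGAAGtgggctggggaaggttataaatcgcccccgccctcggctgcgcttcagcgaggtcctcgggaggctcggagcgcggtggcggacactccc

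Flt1 held AGGAAG at 2 places on the printed strand, beginning 172 and 96 bases before the start. The Kdr window held no AGGAAG, though it does hold the shorter GGAA, which was not counted in any promoter. Of the 5 promoters, 3 held AGGAAG on either strand, those of Tie1, Flt1 and Nos3, beside 29.5% of all 33469 promoters of that length. Both strands were also searched for the motif AGAACA, which is one side of a glucocorticoid receptor site, and it was found in 0 of the 5 and in 17.5% of all. The motif AGATAA, which GATA factors bind, was found in 0 of the 5 and in 10.3% of all. The motif AACAAT, which SOX factors bind, was found in 0 of the 5 and in 10.3% of all. These are matches of letters only, and with 1 motif found there was no overlap between motifs.

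Facts of the arrays bear on every value below. Between 81.2% and 82.4% of the spots on each array were well above background, and no spot was saturated. The Control and HSD1 arrays were in scan 1 and the HSD1+BVT array alone in scan 2, so the inhibitor and the scan cannot be told apart. Hsd11b1, the targeted gene, was 1.39-fold higher with the vector than in Control and 1.30-fold higher with vector and inhibitor. Those ratios rest on 1 probe, which checks the label only if it detects RNA made from the vector, and that is not known here. With 1 array a group the spread between cultures cannot be estimated, so there is no test and no p-value. A gene was called higher or lower at 2-fold or more, where it was well above background on both arrays. The errors to hand are technical. The one printed beside each ratio is the SD of a ratio of single spots, taken from the 100 probes nearest in signal among 1270 that were printed 10 times. For Tek and Sox17 these 100 probes had mean signals of 19.7 to 62.5. Sox17 itself read 17.5 to 32.3 and Tek 24.0 to 37.6, toward the low end, so their printed SD may be too small. The scanner software's own error of the same log2 ratios is wider, 0.20 to 0.21 for Kdr, Flt1, Pecam1 and Cdh5 and 0.31 to 0.42 for Tek and Sox17.

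The label of the cells was checked against markers. All 10 cardiomyocyte markers were well above background on all 3 arrays, and so were all 10 fibroblast markers, all 10 pericyte and smooth muscle markers and 7 of 10 macrophage and leucocyte markers. Of the 9 endothelial genes with a probe, 6 were well above background on all 3 arrays, namely Kdr, Flt1, Tek, Pecam1, Cdh5 and Sox17. Tie1, Cldn5 and Nos3 were not well above background on any array. In pooled RNA, more endothelial cells and more RNA per endothelial cell cannot be told apart.

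With the 11β-HSD1 vector, each of the 6 measured endothelial markers was higher than in Control, by 1.45-fold for Cdh5 to 2.10-fold for Sox17. With the inhibitor added they parted: Tek and Sox17 were lower than with the vector alone, Pecam1 and Flt1 slightly lower, Cdh5 level and Kdr higher. Levels are given as the processed signal in percent of the array's own percentile 75, a scale on which arrays but not different probes can be compared.

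**Figure D1:**
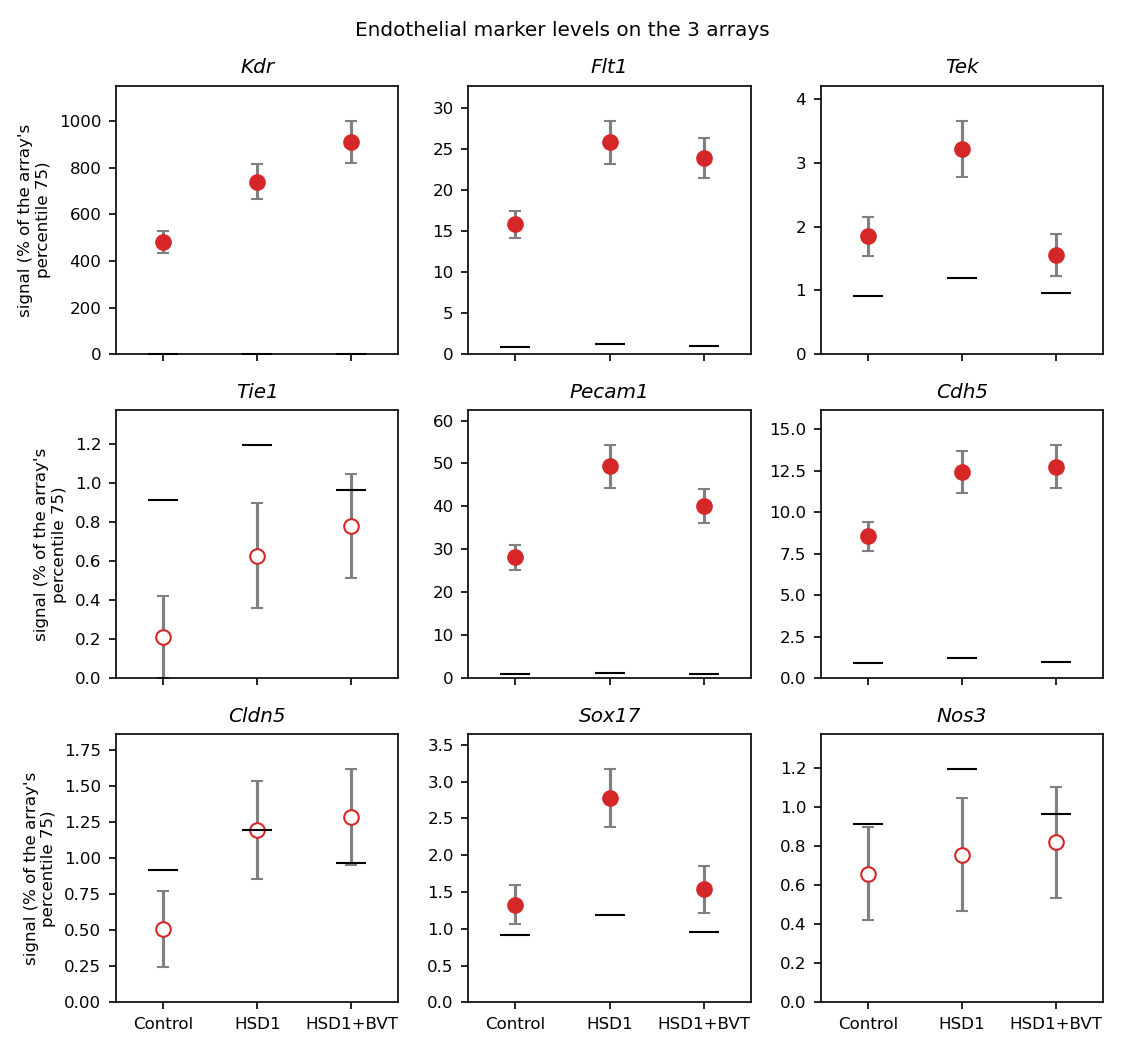
Signal of each of the 9 endothelial genes with a probe, in percent of the array's percentile 75 (vertical axis, linear, from 0), on the Control, HSD1 and HSD1+BVT arrays. Filled points were well above background and open points were not, grey bars are the scanner software's error of the spot (mean over spots for Nos3), and black dashes mark the lowest signal of any probe well above background on that array. Kdr climbs from 482% to 910.2%, while Tek and Sox17 peak on the HSD1 array, at 3.22% and 2.78% with the dash at 1.19%. On the HSD1+BVT array they lie at 1.56% and 1.54% with the dash at 0.963%.

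Kdr, the main signalling receptor for VEGF, stood at 482% in Control, 741% with the vector and 910.2% with vector and inhibitor. It was the one measured member that was highest by a clear margin on the HSD1+BVT array. The ratio to Control was 1.54-fold with the vector (log2 0.62, technical SD 0.054) and 1.89-fold with vector and inhibitor (log2 0.92, SD 0.049). Against the vector alone it was 1.23-fold higher (log2 0.30, SD 0.054). No step reached 2-fold, and each exceeded both its technical SD and the scanner's error of 0.20.

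Flt1, the other VEGF receptor, which binds VEGF tightly and signals weakly, stood at 15.8% in Control, 25.8% with the vector and 23.9% with vector and inhibitor. It was 1.63-fold higher with the vector (log2 0.71, technical SD 0.075) and 1.51-fold higher with vector and inhibitor. Between the HSD1 and HSD1+BVT arrays its log2 ratio was -0.11 with an SD of 0.074. Flt1 was thus high on both arrays that carried the vector and low in Control.

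Tek, the angiopoietin receptor also called Tie2, stood at 1.85% in Control, 3.22% with the vector and 1.56% with vector and inhibitor. It was 1.74-fold higher with the vector (log2 0.80, technical SD 0.22) and then 2.07-fold lower with the inhibitor (log2 -1.05, SD 0.23). The Control and HSD1+BVT arrays differed by a log2 ratio of -0.25 with an SD of 0.22. Tek is a dim probe: the median brightness of its spot was 79, 101 and 76 on the 3 arrays in that order, where the median negative control spot read 56, 61.5 and 44. With background set from negative controls, its ratio to Control with the vector was 0.47. Wherever it is named here, that setting also starts from the spot's median brightness minus its local background in place of the processed signal. It adds 50 to every signal as well, which by itself changes the ratios of dim probes most. The shares of starting signal, background and added constant in such values were not separated. Tie1, the relative of Tek, read 66, 68 and 63, was not well above background on any array, and gives no ratio.

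Pecam1, an adhesion molecule at the contacts between endothelial cells that platelets and leucocytes also carry, stood at 28.1% in Control, 49.3% with the vector and 40.1% with vector and inhibitor. It was 1.75-fold higher with the vector (log2 0.81, technical SD 0.069). With the inhibitor it was 1.23-fold lower than with the vector alone (log2 -0.30, SD 0.066) and 1.43-fold above Control. The order of the arrays was HSD1, HSD1+BVT, Control, with each gap wider than the technical SD and than the scanner's error of 0.20.

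Cdh5, the cadherin of endothelial adherens junctions, stood at 8.55% in Control, 12.4% with the vector and 12.7% with vector and inhibitor. It was 1.45-fold higher with the vector (log2 0.54, technical SD 0.094) and 1.49-fold higher with vector and inhibitor. The HSD1 and HSD1+BVT arrays differed by a log2 ratio of 0.04 with an SD of 0.098, within the technical error. Cldn5, the claudin of endothelial tight junctions, read 65, 75 and 68 in spot brightness and was not well above background on any array.

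Sox17 stood at 1.32% in Control, 2.78% with the vector and 1.54% with vector and inhibitor. It was 2.10-fold higher with the vector (log2 1.07, technical SD 0.22), and adding the inhibitor left it 1.80-fold below the HSD1 array (log2 -0.85, SD 0.23). The HSD1+BVT array lay 0.22 above Control on the log2 scale with an SD of 0.22. Its probe is as dim as that of Tek, with spot brightness of 82, 97.5 and 74. With the background set from the negative control spots and 50 added to every signal, its ratio to Control with the vector was 0.33. That with vector and inhibitor was -0.23. That setting also starts from another signal, as given for Tek, and which of its steps moved these values was not tested.

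Nos3, the endothelial nitric oxide synthase, is printed in 10 spots, so its spread on each array is known. Its processed signal was 9.17 ± 2.95 (SD, n = 10 spots) in Control, 9.20 ± 2.94 (SD, n = 9 spots) with the vector and 13.6 ± 5.34 (SD, n = 9 spots) with vector and inhibitor. These are spots of 1 array each and not replicates of a group. The ranges overlapped, from 5.03 to 13.0 in Control, 5.50 to 14.5 with the vector and 6.90 to 23.4 with the inhibitor. Of the 28 spots kept on the 3 arrays 1 was well above background, on the HSD1+BVT array, so Nos3 gives no ratio.

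The comparison of HSD1 with Control asks what the vector changed. Of the 6 measured members 1 was called higher, Sox17, where 1.34% of 11877 measured genes were. At 1.5-fold the count was 5 of 6, all but Cdh5, beside 5.66% of all genes. That count depended on the processing. Tek fell under 1.5-fold after cyclic loess (log2 0.53) and Kdr with the median gene set to 0 (0.56). With background set from negative controls Kdr (0.52), Tek (0.47) and Sox17 (0.33) fell under it. All 6 had ratios above 0, as did 60.1% of all genes, and the median log2 ratio was 0.75 beside 0.06 over all genes. Ranked among all measured genes, Cdh5 lay at percentile 93.2, Kdr at 95.1, Flt1 at 96.5, Tek at 97.5, Pecam1 at 97.6 and Sox17 at 98.8. The members were chosen with earlier results of these data known, so these counts and ranks only describe them. The 6 ratios stayed above 0 under all 8 other settings run. The mean of all probes and no filter on dim probes could not change them, as each gene had 1 probe and passed the filter. Scaling by the probes above background and setting the median gene to 0 only subtract a constant from every ratio. Sox17 fell under 2-fold after quantile normalization (0.84), after cyclic loess (0.79) and in the deposited table (0.82).

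**Figure D2:**
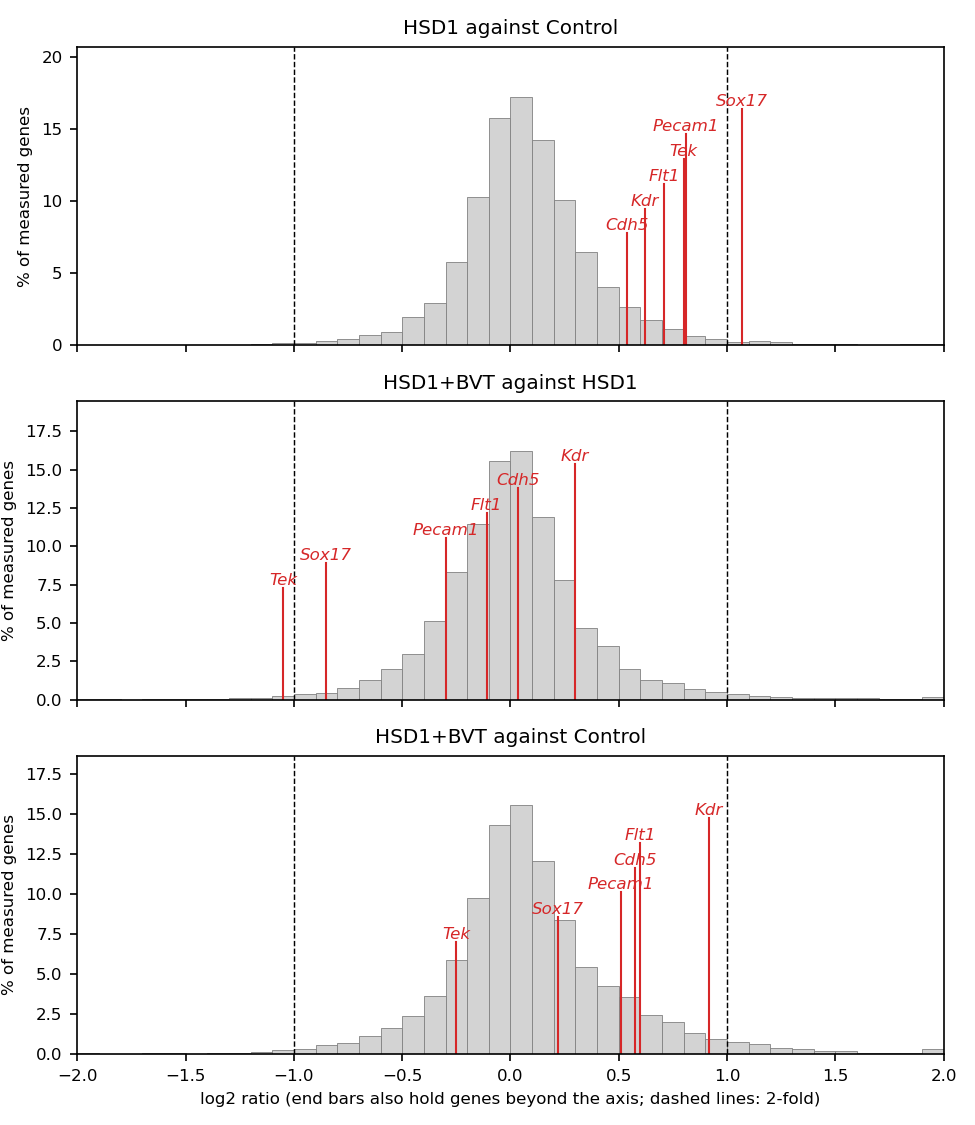
Log2 ratios of the 6 measured endothelial genes (red lines, whose height only separates the names) over the distribution of all measured genes (grey bars, percent of genes per bin), in 3 comparisons. With the vector the 6 lie together between 0.54 and 1.07, with the inhibitor added they spread from -1.05 to 0.30, and against Control the inhibitor array spans -0.25 to 0.92.

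The comparison of HSD1+BVT with HSD1 asks what the inhibitor changed. Of the 6 members 1 was called lower, Tek, where 0.581% of 11707 genes were, and none was called higher. At 1.5-fold, 2 were lower, Tek and Sox17, beside 3.72% of all genes. With background set from negative controls both were under 1.5-fold (-0.52 and -0.55). In all, 4 had ratios below 0, as did 48.8% of all genes, and the median was -0.20 beside 0.01 over all genes. Tek lay at percentile 0.44 and Sox17 at 1.14 of all genes, Pecam1 at 13.7, Flt1 at 31.7, Cdh5 at 55.2 and Kdr at 84.6. Cdh5, within its technical error of 0, turned negative in 3 of the 8 other settings, and Tek was under 2-fold after cyclic loess (-0.98) and with background set from negative controls (-0.52). Without the dim probes of Tek and Sox17, the median of the remaining 4 was -0.04.

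The comparison of HSD1+BVT with Control sets both agents together against the empty vector. No member was called, where 3.7% of 11721 genes were called in either direction. At 1.5-fold, 2 were higher, Kdr and Flt1, beside 10.1% of all genes. Flt1 was under 1.5-fold in every setting that changed its ratio (log2 0.50 to 0.55). Ratios were above 0 for 5 of 6, as for 58.9% of all genes, and the median was 0.54 beside 0.05. Kdr lay at percentile 96.3, Flt1 at 90.2, Cdh5 at 89.6, Pecam1 at 87.1, Sox17 at 70.5 and Tek at 13.7. Sox17 was at 0 to within 0.02 after quantile normalization, cyclic loess and in the deposited table, and below 0 with background set from negative controls. The comparison shares the Control array with the first and the HSD1+BVT array with the second, so its values are not independent of theirs.

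**Figure D3:**
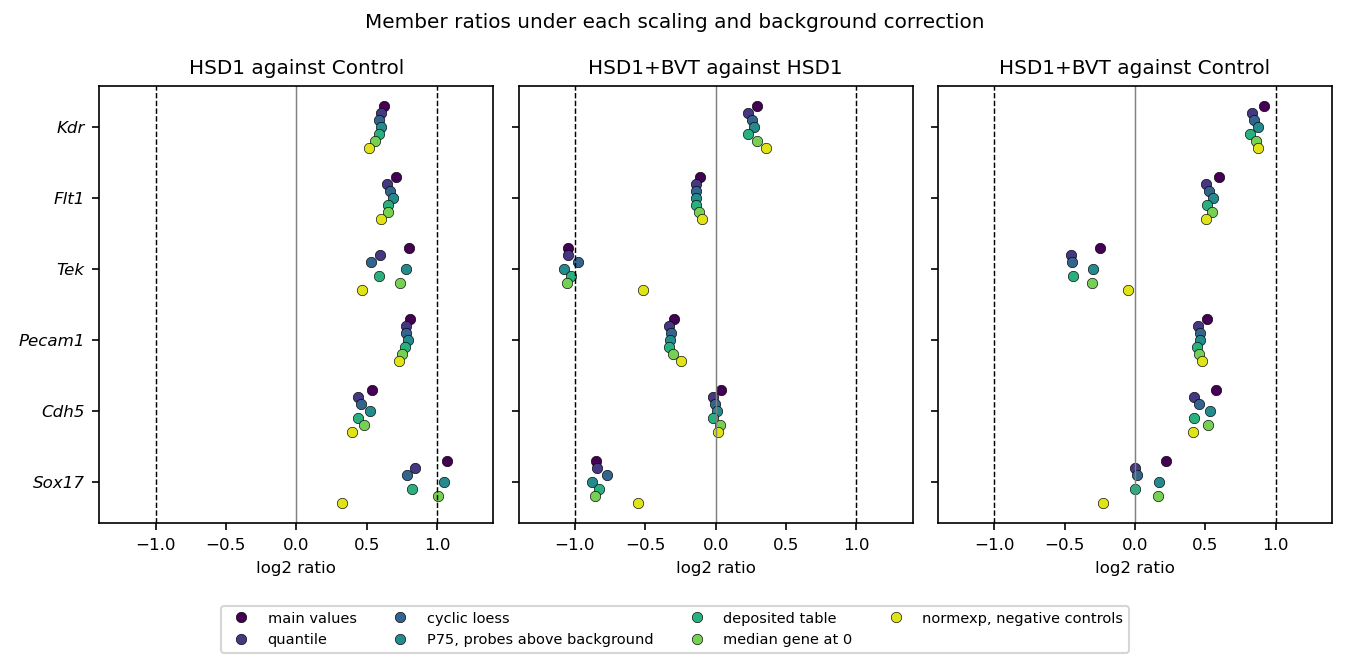
Log2 ratio of each measured endothelial gene (rows) in 3 comparisons (panels) under 7 scalings or background corrections (colours); dashed lines mark 2-fold. Sox17 and Tek spread over wider ranges than Kdr, Flt1, Pecam1 and Cdh5. With the vector Sox17 spans 0.33 to 1.07 and Tek 0.47 to 0.80, while Cdh5 spans 0.40 to 0.54 and Kdr 0.52 to 0.62.

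Genes of like pattern were sought by the distance between pairs of log2 ratios (HSD1 against Control, and HSD1+BVT against HSD1). The median pair of the 6 measured members was 0.75 and -0.20, and the search covered 5796 other genes above the median signal. The 5 genes nearest to that pair were Kif26b, Steap2, Cbx7, Gda and Tspan17, at distances of 0.011 to 0.050. Of the members, Flt1 lay 0.10 from it, Pecam1 0.11, Cdh5 0.32, Kdr 0.52, Sox17 0.72 and Tek 0.85. For Kdr, Sox17 and Tek, 570, 2131 and 3598 of the other genes lay as near or nearer, so the pair does not describe every member. Kif26b, the nearest, had log2 ratios of 0.77 and -0.20, and Steap2 had 0.75 and -0.22. The measure rests on 3 arrays, and both ratios hold the HSD1 array.

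Other genes of endothelial biology were read from 9 lists holding 110 genes, of which 90 were measured on the HSD1 and Control arrays. With the vector 54 of these 90 lay above 0 and the median was 0.13, beside 60.1% and 0.06 over all genes. At 2-fold 5 were higher, where 1.34% of all genes were, and 1 was lower, where 0.539% were. The medians of the 9 lists ran from -0.62 to 0.49, beside 0.75 for the 6 measured markers.

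Among ligands, 6 of 9 lay above 0 with the vector and none was called. Pgf, a VEGF family ligand that binds Flt1, was 1.74-fold higher (log2 0.80), and its other probe gave 0.61. Vegfa, the ligand of Kdr and Flt1, had a log2 ratio of -0.31, and its 3 other probes gave -0.20, -0.26 and -0.41. Of the angiopoietins that bind Tek, Angpt1 had a log2 ratio of 0.32 and Angpt2 one of 0.17, and with the inhibitor Angpt2 stood at -0.67 against the vector alone. Vegfa, Angpt1 and Angpt2, and below Calcrl, Icam1, Vcam1, Sox7, Sox18, Dll1, Cav1, Cd36, Pf4 and Ptprc, were named after their values were seen.

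Among receptors and co-receptors, 5 of 11 lay above 0 with the vector, none was called, and the median was -0.01. Ednrb, an endothelin receptor, had a log2 ratio of -0.75 with the vector and was 2.10-fold lower than Control with vector and inhibitor (log2 -1.07, or -0.77 with background set from negative controls). With the inhibitor 8 of 10 receptors lay below their level with the vector alone (median -0.25). Calcrl, part of the receptor for adrenomedullin, was not well above background on the HSD1+BVT array and at least 1.63-fold lower there than with the vector alone, where the bound takes the dimmest probe counted as well above background on that array.

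Among junction and surface genes, 8 of 16 lay above 0 with the vector, and the median was -0.01. Icam2, an adhesion molecule of resting endothelium, was 2.55-fold higher (log2 1.35), or at 0.50 with background set from negative controls. With the inhibitor Icam2 was no longer well above background and at least 2.77-fold lower than with the vector alone. At 1.5-fold, 4 of the 16 were higher with the vector and 1 was lower, beside 672 and 274 of 11877 genes. With the inhibitor 10 of 15 lay below the vector alone (median -0.11). Cd34 and Plvap were picked from this list after their values were seen. They gave log2 ratios of -0.09 and -0.02 for HSD1 against Control and of -0.71 and -0.49 for HSD1+BVT against HSD1. The endothelial sialomucin gene Emcn was not well above background on any array.

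Of the adhesion genes of activated endothelium, Selp, which encodes P-selectin, was 2.12-fold lower with the vector (log2 -1.08), or at -0.46 with background set from negative controls. Vcam1 had a log2 ratio of -0.62 and Icam1 one of 0.05. Sele, E-selectin, was not well above background on any array. These 3 measured genes lay the other way from the 6 markers or close to 0, with a median of -0.62.

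Among haemostasis genes, Thbd, the thrombomodulin gene, was 2.39-fold higher with the vector (log2 1.25) by the probe used. Its other probe was measured on the HSD1 but not the Control array. Thbd stayed at 2-fold or more under all 7 alternatives run for it, at 1.20 to 1.25. The mean of all probes and no filter on dim probes could not change that ratio. Thbd stood at 0.94 against Control with vector and inhibitor. The other 7 measured genes lay between -0.10 and 0.42 with the vector, and the list's median was -0.02.

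Of 15 endothelial transcription factors 10 lay above 0 with the vector and none was called (median 0.24). The farthest was Nr2f2, a factor of venous endothelium, 1.59-fold higher. With the inhibitor 11 of 15 lay below 0 (median -0.34), and none was called. The relatives of Sox17 in this list, Sox18 and Sox7, differed from Control by 0.25 and -0.19 (log2) with the vector, and from the vector alone by -0.06 and -0.52 with the inhibitor.

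In the Notch pathway, Notch4, a Notch receptor largely restricted to endothelium, was 3.24-fold higher with the vector (log2 1.70) and 2.52-fold higher than Control with vector and inhibitor; the first of these was the highest ratio to Control with the vector in the 9 lists. Both fell under 2-fold with background set from negative controls, at 0.93 and 0.57. Of the 8 measured genes of the pathway 5 lay above 0 with the vector (median 0.18), and 7 lay below 0 with the inhibitor (median -0.17). Dll1 was well above background on the HSD1 array alone, at least 1.88-fold above Control.

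In the nitric oxide pathway 7 of 10 measured genes lay above 0 with the vector and none was called (median 0.28). Arg2, an arginase that competes for the substrate of Nos3, was 1.77-fold higher (log2 0.83). Cav1, the caveolin that binds Nos3, had a log2 ratio of 0.60 with the vector and of -0.34 with the inhibitor. Nos1 was, like Nos3, not well above background on any array.

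Genes of capillary lipid handling and other endothelial genes lay above 0 in 9 of 10 cases with the vector, with 2 called (median 0.49). Fabp4, a fatty acid binding protein of capillary endothelium that adipocytes and macrophages also express, was 2.61-fold higher with the vector and 2.98-fold higher with vector and inhibitor. Timp4 was 2.20-fold higher with the vector, under 2-fold in the deposited table and after quantile normalization or cyclic loess (log2 0.91 to 0.96), and at 0.56 with background set from negative controls. Cd36, a fatty acid translocase found in capillaries and muscle, had log2 ratios of 0.55 and 0.93 to Control in the same order, and 0.65 and 0.98 by its other probe.

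With the inhibitor 62 of 87 endothelial genes of the 9 lists lay below their level with the vector alone, beside 48.8% of all genes. The median was -0.11 beside 0.01 over all genes. None of the 87 was called, beside 2.08% of all genes in either direction. Icam2, which is outside the 87, had the bound given above. Against Control, the HSD1+BVT array had 38 of 88 above 0, beside 58.9% of all genes, and a median of -0.04 beside 0.05. Of the 88, 2 were called higher, Notch4 and Fabp4, beside 2.95% of all genes. In the other direction 1 was called lower, Ednrb, beside 0.751%. With background set from negative controls 1 call was left, that of Fabp4, beside 1.23% of all genes in either direction.

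**Figure D4:**
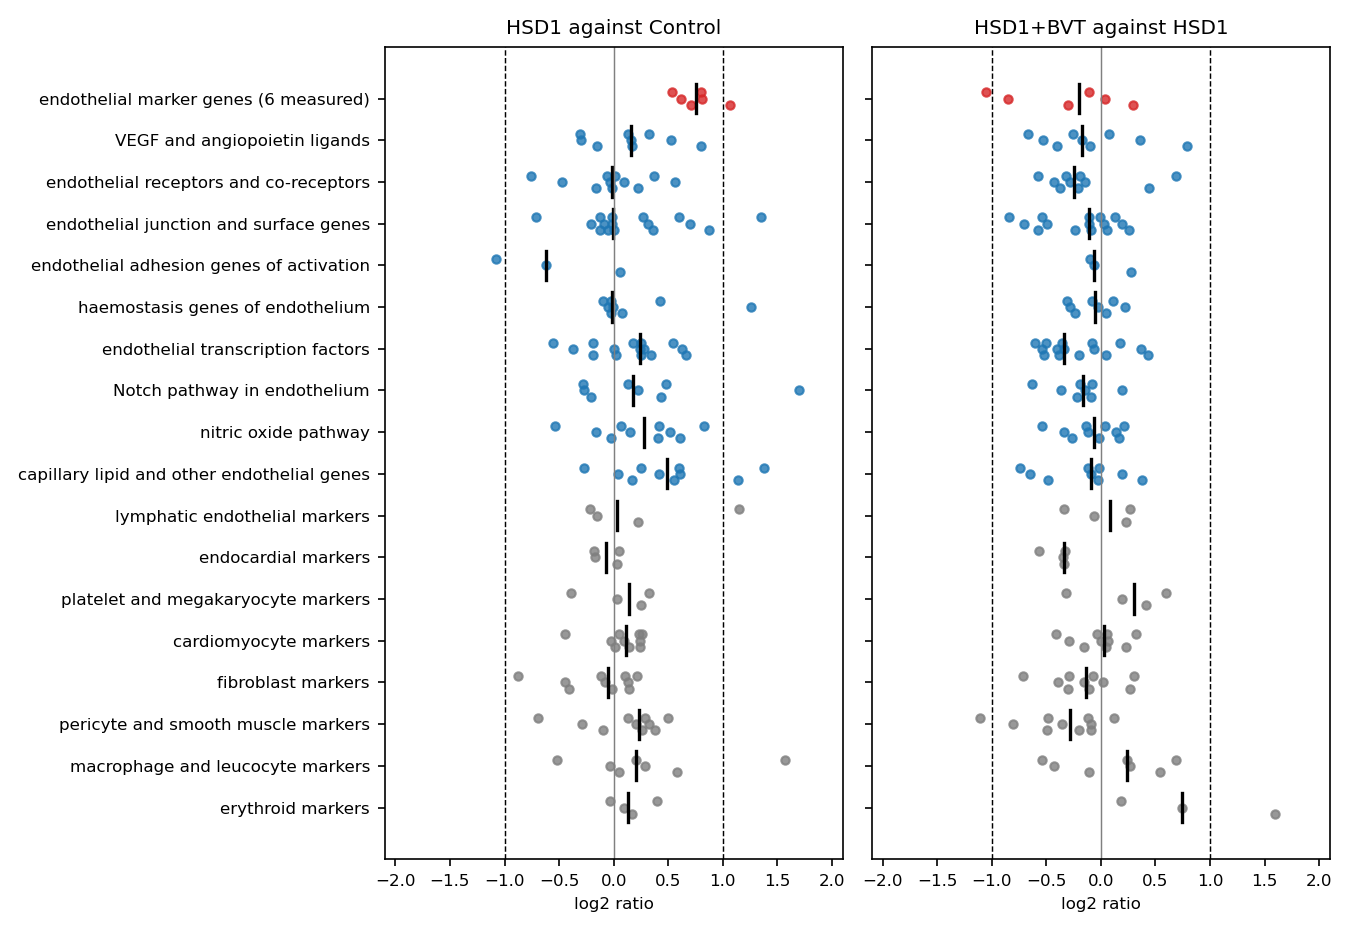
Log2 ratios of measured genes (points) by list (rows), HSD1 against Control on the left and HSD1+BVT against HSD1 on the right; black bars are list medians, red the endothelial markers, blue other endothelial lists and grey markers of specialised endothelium and other cell types. With the vector the red points lie between 0.54 and 1.07, while the blue lists reach to both sides of 0.

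Markers of specialised endothelium and of cells that share endothelial genes were read beside these values. Of lymphatic endothelial markers 2 of 4 lay above 0 with the vector, Prox1, the defining factor, was not well above background on any array, and Ccl21 was 2.21-fold higher, or at 0.38 on the log2 scale with background set from negative controls. The summed level of the lymphatic list was 688%, 596% and 569% of the percentile 75 on the Control, HSD1 and HSD1+BVT arrays, almost wholly the signal of Pdpn, podoplanin. Endocardial markers had a median of -0.07 with the vector and lay below 0 in 4 of 4 cases with the inhibitor (median -0.34). Their member farthest from 0 with the vector was Hapln1, at -0.18 by the probe used and -1.66 by its other probe, and their summed level was 244%, 219.8% and 173% in the same order, most of it the signal of Npr3.

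Platelet and megakaryocyte markers, some of which accompany Pecam1 in blood cells, had a summed level of 109%, 104% and 106% and a median of 0.14 with the vector. Gp1ba was not well above background on any array, and Pf4, a platelet chemokine, had a log2 ratio of -0.39. Macrophage and leucocyte markers summed to 1280.2%, 1854% and 1429%, almost wholly the signal of Lyz2, a lysozyme gene. With the vector 5 of 7 lay above 0, and Mrc1, a mannose receptor that some endothelial cells also carry, was 2.97-fold higher (log2 1.57, or 0.87 with background set from negative controls). Ptprc, the pan-leucocyte gene, had a log2 ratio of -0.51 with the vector by the probe used and of 0.21 by its other probe, and C1qa was not well above background. Their part in the values of Pecam1 and Flt1 was not tested.

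Pericyte and smooth muscle markers, cells that wrap the endothelium, summed to 5225%, 6089% and 4832%, most of it the signal of Acta2, smooth muscle actin, with 7 of 10 above 0 with the vector (median 0.23) and 9 of 10 below 0 with the inhibitor (median -0.28). Rgs5, a pericyte gene, was 2.15-fold lower on the HSD1+BVT than on the HSD1 array (log2 -1.11, or -0.71 with background set from negative controls). Fibroblast markers summed to 19560%, 19525% and 18596% (median -0.05 with the vector), with Lum farthest from 0 at -0.88. Cardiomyocyte markers summed to 27970%, 31528% and 32300.3% (median 0.12), with Myl2 farthest at -0.45. Erythroid markers summed to 216%, 212% and 358%, a sum that Hba-a1, an alpha globin gene, makes up almost wholly. Alas2, a haem synthesis enzyme, was 3.99-fold above Control on the HSD1+BVT array (log2 1.99, or 1.08 with background set from negative controls). Hbb, a beta globin gene, went the other way and was not well above background on that array, at least 1.27-fold below Control. The 6 measured and 3 dim endothelial markers summed to 539%, 837% and 993%, a sum that Kdr dominates. Whether cell composition had a part in the members' values was not tested.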

How the data were processed

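Total RNA of 3 pools, 1 per group, was read on 1-colour Agilent arrays. Per the file headers, the deposited intensity values (processed signal, spot and background brightness, and the signal's error) and the flags, a code or score for each spot, came from Agilent Feature Extraction 11.0.1.1. A further table deposited by the authors holds log2 values of single arrays, with no normalization named in its header; on each array it followed the log2 processed signal (r = 0.999 across probes), and its median was 6.69 on all 3.

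Here, control and outlier spots (311, 409 and 363 in Control, HSD1 and HSD1+BVT) were left out, log2 signals were averaged per probe and the array's percentile 75 was subtracted. Accessions were matched to RefSeq (GRCr8): 18005 of 30366 probes matched 1 gene. The array design was annotated on rn4, so no probe coordinates are given. The probe with the highest mean signal stood for a gene. The rule for named genes took all 10 members, genes 2-fold away in any list or else the farthest with the vector, the 5 genes of nearest pattern, and Hsd11b1. Members and lists were chosen with earlier results of these data known. Alternatives used limma 3.58.1 in R 4.3.3; other steps used Python 3.11.15. The number of arrays limits the precision.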

Additional observations from a re-analysis of the deposited data

How the results depend on the processing

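All 6 measured endothelial genes lay above 0 with the vector under each of the 8 alternatives run. For these 6 the mean of all probes and no filter on dim probes could not change the ratios. Scaling by the probes above background and setting the median gene to 0 only subtract a constant from every ratio. For the median gene set to 0 that constant was 0.06 with the vector. The median ratio of HSD1 to Control, 0.75, was 0.62 after quantile normalization, 0.63 after cyclic loess, 0.62 in the deposited table, 0.49 with normexp and background from the negative control spots, and 0.66 without Tek and Sox17. The count called, 1, was 0 under each of these 5, 3 with no filter on dim probes and 5 at 1.5-fold. Sox17 was the 1 gene called, so the removal of Tek and Sox17 fixed its count of 0 in advance. Of all genes 1.88% were called in the main values and 7.25% with no filter, and 5.66% were higher at 1.5-fold. The calls added with no filter were Tie1 and Cldn5, which were not well above background on any array. For HSD1+BVT against HSD1, the median of -0.20 was 0.037 with no filter on dim probes and -0.037 without Tek and Sox17. The count called, 1, was 0 after cyclic loess, with normexp and negative controls and without Tek and Sox17, and 2 at 1.5-fold. Tek was the 1 gene called here, so its removal again fixed the 0 in advance. Of all genes 2.08% were called in the main values, and 3.72% were lower at 1.5-fold. For HSD1+BVT against Control, the median of 0.54 was 0.43 after quantile normalization, 0.46 after cyclic loess, 0.43 in the deposited table and 0.45 with normexp and negative controls. The count called, 0, was 2 with no filter, again Tie1 and Cldn5, and 2 at 1.5-fold. Of all genes 3.7% were called in the main values and 9.59% with no filter, and 10.1% were higher at 1.5-fold. The cause of these shifts was not tested.

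The normexp fit to all spots was not used, because it put the background mean of the HSD1 array at -1144. The fit from 153 negative control spots, the median gene set to 0 and the removal of Tek and Sox17 were chosen after seeing the data. Among all genes, quantile normalization turned the split of higher to lower calls with the vector from 159 and 64 to 117 and 92, cyclic loess to 113 and 93 and the deposited table to 113 and 90. For HSD1+BVT against Control it went from 346 and 88 to 194 and 154, to 232 and 146 and to 190 and 149 in the same order. With no filter on dim probes, HSD1+BVT against HSD1 went from 176 and 68 to 520 and 1016. Normexp with negative controls called 95 genes with the vector in place of 223, 88 in place of 244 for HSD1+BVT against HSD1, and 144 in place of 434 for HSD1+BVT against Control; with no filter the counts were 1099, 1536 and 1453. Normexp with negative controls also starts from spot brightness minus local background in place of the processed signal. It adds 50 to every signal as well, which by itself changes the ratios of dim probes most. Its lower counts therefore do not show the effect of background alone. Of the 6 genes of the endothelial lists called with the vector, 2 stayed at 2-fold under this setting, Fabp4 and Thbd. Signal over background leaves Tie1, Cldn5 and Nos3 without a ratio, and Tek and Sox17 lie close to it. No paired analysis was possible because each group had 1 array.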
